A study of Mus musculus with 16 samples.

Results

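The genes described here carry the adrenergic and cAMP signal of brown adipose tissue (BAT): the receptors *Adrb3*, *Adrb1*, *Adra1a* and *Adra2a*, the stimulatory G protein gene *Gnas*, the adenylyl cyclase gene *Adcy3*, the protein kinase A (PKA) subunit gene *Prkar2b*, and the phosphodiesterase genes *Pde3b* and *Pde4d*. They were listed by name, with earlier results of these data known, and are 9 of the 49066 genes to which the transcripts could be summed. BAT of 16 mice on the C57BL6/J background was sequenced in bulk, 4 per group, as male wildtype (WT), male knockout (KO), female WT and female KO. All mice, controls included, carried floxed *Gdf15* alleles on both chromosomes (*Gdf15* fl/fl), and the KO mice (GDF15 BKO) also carried Cre recombinase under the *Ucp1* promoter, which the WT mice lacked. All had been fed high-fat diet (HFD) for 12 weeks from 6 weeks of age and were 18 weeks old. They were housed at 22 °C, and part of the cohort spent time at 30 °C for calorimetry. Whether the sequenced mice did so is not given in the sources used here. The *Ucp1* promoter drives Cre in thermogenic adipocytes only, so the other cells of the tissue kept *Gdf15*. In bulk tissue, fewer cells of a type and less RNA per cell cannot be told apart.

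Noradrenaline from sympathetic nerves reaches brown adipocytes mainly through the β3-adrenergic receptor. This receptor acts through the stimulatory G protein (Gs) on adenylyl cyclase, and the cAMP formed releases the catalytic subunits of PKA from their regulatory subunits, which starts lipolysis, induces *Ucp1* and related genes, and so drives heat production. α2-receptors act through an inhibitory G protein against the cyclase, α1-receptors act through Gq and calcium, and phosphodiesterases end the signal by breaking down cAMP.

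Levels are given as TPM, a measure that corrects read numbers for transcript length and sets every library to the same total. It does not preserve read numbers, so depth is unknown here and counting error could not be computed. The libraries detected 58140 to 65746 transcripts, and mitochondrial transcripts made up 34.5 to 59.8% of TPM. *Gdf15* had 0.368 to 3.81 TPM in male WT and 0.0801 to 0.272 TPM in male KO mice, with p = 0.0286 by an exact two-sided permutation test, the lowest reachable with 4 mice a group. In females it had 0.0622 to 0.311 TPM in WT mice, and was listed at 0 in 3 of the 4 KO mice and at 0.0794 TPM in the fourth (exact p = 0.0571). The summed level of 8 brown adipocyte markers was 6444 to 13350 TPM, with each of them above a mean of 1 TPM. Skeletal muscle markers summed to between 73.7 and 3745 TPM per library, and the genotypes overlapped in both sexes (exact permutation test, p = 0.714 and 0.600). Each library name starts with a prefix whose meaning is not stated, namely 5, 5, 9 and 9 for male WT, 10, 9, 9 and 9 for male KO, 10, 8b, 8b and 8b for female WT, and 10, 5, 8b and 9 for female KO mice.

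The promoter sequences of the members are shown first, as the place where a cAMP-responsive factor could bind. RefSeq (GRCm38.p6) start sites were at hand for 6 of the 9 genes, in 11 windows of 250 bases that end at the base before the start. *Adcy3*, *Gnas* and *Adrb1* are printed because *Adcy3* was the most variable member, *Gnas* the most abundant, and *Adrb1* the weakest β-receptor. Capitals mark TGACG or its reverse complement CGTCA, the core of the cAMP response element, searched on both strands.
*Adcy3*, chr12:4133147-4133396, plus strand, upstream start: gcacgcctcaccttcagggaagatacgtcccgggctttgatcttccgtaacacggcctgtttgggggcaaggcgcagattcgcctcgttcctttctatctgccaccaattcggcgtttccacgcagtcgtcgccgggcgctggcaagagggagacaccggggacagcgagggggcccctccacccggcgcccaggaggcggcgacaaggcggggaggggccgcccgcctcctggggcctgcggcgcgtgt
*Adcy3*, chr12:4133903-4134152, plus strand, before the downstream start, that of Adcy3-201: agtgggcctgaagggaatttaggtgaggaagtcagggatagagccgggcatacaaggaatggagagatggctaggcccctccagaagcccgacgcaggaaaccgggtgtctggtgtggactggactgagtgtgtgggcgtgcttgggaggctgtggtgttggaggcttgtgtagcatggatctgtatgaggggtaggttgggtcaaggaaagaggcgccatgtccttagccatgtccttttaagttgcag
*Gnas*, chr2:174329756-174330005, plus strand, before the start of Gnas-207: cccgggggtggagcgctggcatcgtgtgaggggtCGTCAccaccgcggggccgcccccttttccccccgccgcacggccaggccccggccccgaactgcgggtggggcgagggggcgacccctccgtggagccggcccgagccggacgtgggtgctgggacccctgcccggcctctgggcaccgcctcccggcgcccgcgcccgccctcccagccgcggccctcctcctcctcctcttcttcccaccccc
*Adrb1*, chr19:56721867-56722116, plus strand, RefSeq start: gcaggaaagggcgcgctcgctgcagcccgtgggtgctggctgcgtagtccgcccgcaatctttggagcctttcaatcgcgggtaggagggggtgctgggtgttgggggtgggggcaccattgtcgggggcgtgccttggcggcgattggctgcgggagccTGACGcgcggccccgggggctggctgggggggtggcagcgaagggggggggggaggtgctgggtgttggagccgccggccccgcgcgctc

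The core lay 216 bases before the start of *Gnas* on the minus strand and 90 bases before that of *Adrb1* on the plus strand. Neither of the *Adcy3* windows held it. Of all 11 windows 5 held it, 3 of them for *Gnas*, where 2 neighbouring starts share 1 site, and 1 each for *Adra2a* and *Adrb1*. Among 32851 RefSeq windows of the same length, 17.8% held the core and 1.55% the full palindrome TGACGTCA. A match is a description of the letters and not a binding site.

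Over all 16 libraries the levels, which TPM make comparable per length, followed the order *Gnas*, *Prkar2b*, *Adrb3*, *Adcy3*, *Pde3b*, *Pde4d*, *Adra1a*, *Adrb1*, *Adra2a*. The mean level was 1557 TPM for *Gnas*, 299.2 TPM for *Prkar2b*, 158.6 TPM for *Adrb3* and 6.64 TPM for *Adrb1*. *Gnas* and *Prkar2b*, *Adra1a* and *Adrb1*, and *Adrb1* and *Adra2a* had ranges that did not overlap. *Adcy3* and *Pde3b* could not be ordered, since *Adcy3* was higher in only 4 of the 16 mice although its mean was the larger. The other neighbours overlapped in range but kept their order within 15 or 16 of the 16 libraries. The plot of TPM by group shows these levels.

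**Figure D1:**
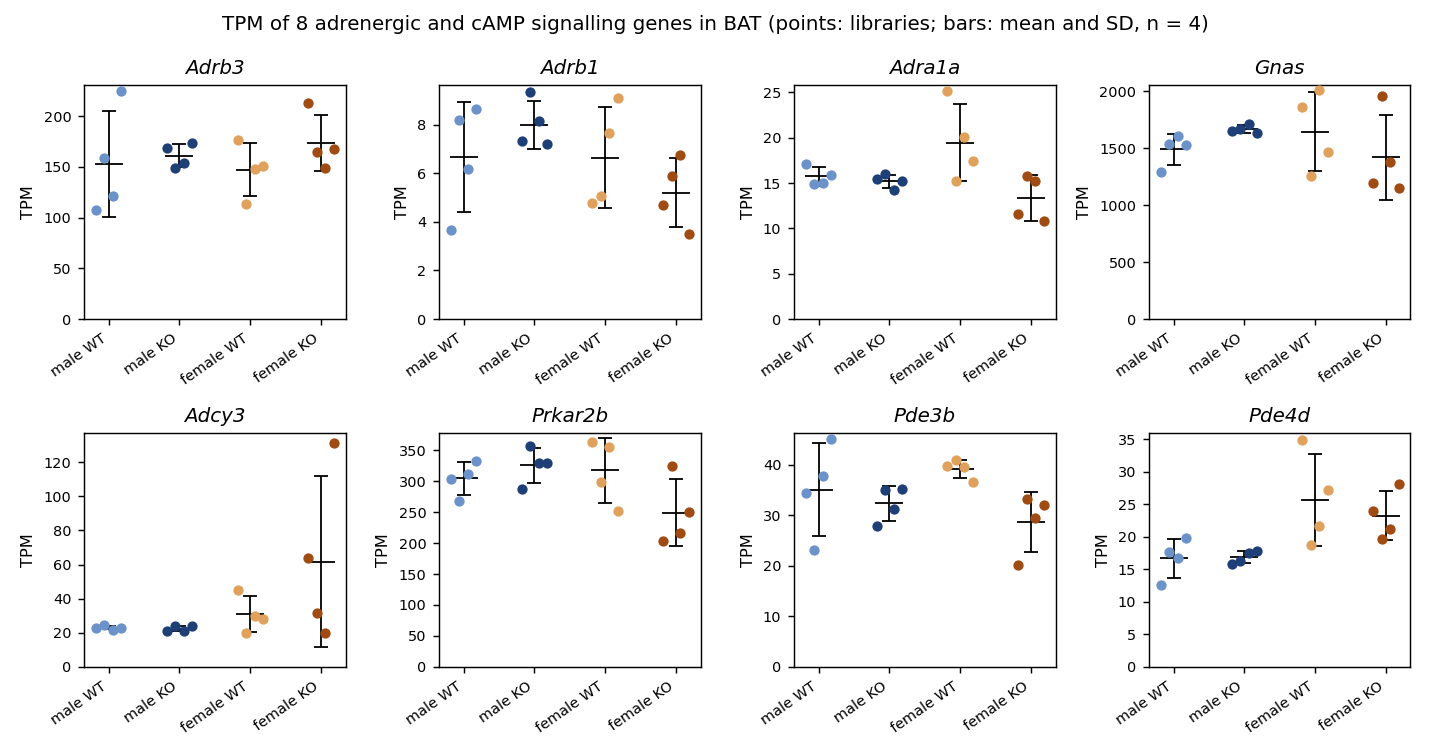
TPM (vertical axis, starting at 0) of the 8 members with a measurable level, 1 panel per gene, in the 4 groups. Points are mice and bars are mean and SD (n = 4); *Adcy3* reaches 131 TPM in a female KO mouse, while the 8 male mice lie between 20.8 and 24.3 TPM.

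*Adrb3* (ENSMUSG00000031489, chromosome 8) encodes the β3-receptor, the main adrenergic receptor of rodent brown fat. It had 108, 159, 121 and 224 TPM in male WT and 168, 149, 153 and 173 TPM in male KO mice. In females it had 177, 114, 148 and 151 TPM in WT and 213, 165, 149 and 167 TPM in KO mice. The groups overlapped in both sexes, and the male WT mice spanned more than the male KO mice. The log2 fold change of KO against WT was 0.13 (SE 0.21) in males and 0.24 (SE 0.18) in females, with adjusted p = 0.747 and 0.478 (limma, Benjamini-Hochberg). The 95% intervals ran from -0.35 to 0.61 and from -0.16 to 0.64. Transcripts Adrb3-201 and Adrb3-203, both coding, held 50.3% and 40.7% of the level.

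*Adrb1* (ENSMUSG00000035283, chromosome 19) encodes the β1-receptor, which responds to noradrenaline at lower concentrations. Male WT mice had 3.67, 8.20, 6.17 and 8.64 TPM, and male KO mice 7.32, 9.35, 8.16 and 7.21 TPM. Female WT mice had 4.78, 5.08, 7.67 and 9.09 TPM, and female KO mice 4.68, 5.90, 6.76 and 3.499 TPM. Its level was a small part of that of *Adrb3* in every library. The difference between genotypes was 0.30 (SE 0.24) in males and -0.32 (SE 0.24) in females on the log2 scale (adjusted p = 0.486 and 0.495). The opposite signs did not pass the test of the difference between the sexes (-0.62, SE 0.36, adjusted p = 0.451).

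*Adra1a* (ENSMUSG00000045875, chromosome 14) encodes the α1A-receptor, which couples to Gq. Among males it was among the most even members, with 17.1, 14.9, 15.02 and 15.9 TPM in WT and 15.4, 15.97, 14.2 and 15.2 TPM in KO mice. Female WT mice had 25.1, 15.2, 20.1 and 17.4 TPM, and female KO mice 11.6, 15.8, 15.2 and 10.8 TPM. The 2 lowest values of all 16 libraries were female KO replicates 4 and 1, and the 3 highest were female WT mice, but the lowest female WT mouse lay among the KO mice. The log2 difference in females was -0.52 (SE 0.19), with an unadjusted p of 0.0219 and an adjusted p of 0.247 (limma). In males it was -0.05 (SE 0.09, adjusted p = 0.770). The difference between these effects was -0.47 (SE 0.21, unadjusted p = 0.0388, adjusted p = 0.325). Without female KO replicates 1 and 4, an alternative chosen after seeing the data, the female difference was -0.29. Averaged over the sexes, the KO effect was -0.28 (adjusted p = 0.121), and it passed the threshold only with libraries rescaled by median-of-ratios factors (-0.42, adjusted p = 0.0393).

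*Adra2a* (ENSMUSG00000033717, chromosome 19), for the α2A-receptor that restrains the cyclase, was at or near 0. Its highest value was 0.0580 TPM, in a female KO mouse, and it was listed at 0 in 1 male WT and 2 male KO mice. It did not reach the mean of 1 TPM required for the limma fit. The 8 males had 0 to 0.0206 TPM and the 8 females 0.0104 to 0.0580 TPM, a log2 difference of 0.042 (exact two-sided permutation test over the 16 mice, p = 0.0143, not adjusted), at values where the number of reads is unknown. Of the other adrenergic receptor genes, *Adra1d* had a mean of 4.50 TPM (0.936 to 7.06), the highest of the 5 listed.

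*Gnas* (ENSMUSG00000027523, chromosome 2) encodes the α-subunit of Gs, from a complex imprinted locus with several starts. Male WT mice had 1294, 1535, 1607 and 1529 TPM, and male KO mice 1649, 1670, 1716 and 1636 TPM. Every male KO mouse was above every male WT mouse, by a small margin, as for 9.55% of all genes. The log2 difference was 0.17 (SE 0.09, adjusted p = 0.357), about the median of all genes tested in males (0.16), and with median-of-ratios scaling it was -0.01. Female WT mice had 1860, 1257, 2009 and 1464 TPM, and female KO mice 1193, 1958, 1381 and 1151 TPM, in overlapping ranges. The 2 lowest of the 16 libraries were female KO replicates 4 and 1. The female difference was -0.22 (SE 0.22, adjusted p = 0.589), and 0.022 without those replicates.

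Only 50.2% of the summed *Gnas* level came from transcripts annotated as coding. The largest single share, 34.4%, was Gnas-218, a noncoding processed transcript of 607 bases, and Gnas-216, a retained intron of 480 bases, held 13.04%. The coding transcripts Gnas-208, Gnas-206 and Gnas-207 held 20.6%, 14.6% and 13.6%. Gnas-208 had 250 to 363 TPM in male WT and 379 to 455 TPM in male KO mice, and Gnas-207 had 168 to 215 TPM and 224 to 241 TPM. Both were thus separated by genotype in males. The coding Gnas-206 was not, with 191 to 228 TPM in WT and 223 to 242 TPM in KO mice. Gnas-218 also overlapped (442 to 638 TPM in WT and 488 to 619 TPM in KO mice). Of all transcripts with a mean of at least 1 TPM, 6.73% were higher in every male KO than in every male WT mouse. Transcripts of a gene share reads, and their split is estimated.

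*Adcy3* (ENSMUSG00000020654, chromosome 12) encodes an adenylyl cyclase that forms cAMP in adipocytes and neurons. The 8 male mice had almost the same level, with 22.96, 24.3, 21.8 and 22.6 TPM in WT and 21.2, 23.996, 20.8 and 23.8 TPM in KO mice. The females ranged widely, with 45.3, 19.8, 29.8 and 28.2 TPM in WT and 63.7, 31.6, 19.8 and 131 TPM in KO mice. The 2 highest values of all libraries were female KO replicates 4 and 1, and both the lowest and the highest mouse of the study were female. The SD of log2(TPM + 0.5) was 0.08 among the 8 males and 0.91 among the 8 females. The genotypes overlapped in females, with a log2 difference of 0.69 (SE 0.53, adjusted p = 0.486). This value turned to -0.23 without female KO replicates 1 and 4, and was 0.21 without replicate 4 alone. In males it was -0.03 (SE 0.09, adjusted p = 0.849).

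The leading *Adcy3* transcript, the coding Adcy3-201 of 4348 bases, held 67.7% of the level, and its start is the one of the second window printed above. It had 77.6 TPM in female KO replicate 4, 37.4 TPM in replicate 1, 22.2 and 12.6 TPM in the other two, 14.8 to 29.8 TPM in female WT mice and 15.7 to 18.6 TPM in males. The high values were therefore also present in the coding form. Females minus males, *Adcy3* differed by 0.72 (SE 0.29, adjusted p = 0.165). Leaving out female KO replicate 3, the lowest of that group, gave 0.93 with adjusted p = 0.0432, and leaving out replicate 4 gave 0.48. The plot of transcripts shows the same mice apart.

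**Figure D2:**
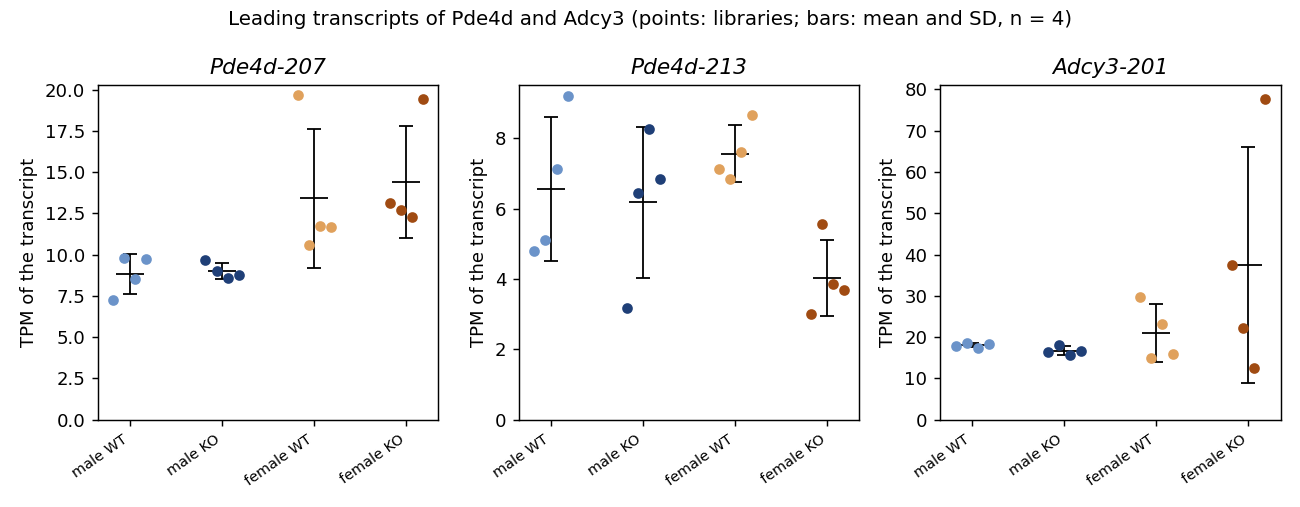
TPM (vertical axis, starting at 0) of Pde4d-207, Pde4d-213 and Adcy3-201 by group. Points are mice and bars are mean and SD (n = 4); for Pde4d-207 the 8 males lie between 7.26 and 9.82 TPM and the 8 females between 10.6 and 19.7 TPM.

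*Prkar2b* (ENSMUSG00000002997, chromosome 12) encodes RIIβ, the main regulatory PKA subunit of adipose tissue. It had 304, 269, 313 and 334 TPM in male WT, 287, 357, 330 and 329 TPM in male KO, 364, 298, 356 and 252 TPM in female WT, and 203, 324, 217 and 251 TPM in female KO mice. The 3 lowest libraries were female KO mice, yet replicate 2 of that group was above the lower 2 female WT mice. The KO effect was 0.10 (SE 0.11, adjusted p = 0.627) in males and -0.36 (SE 0.19, adjusted p = 0.357) in females, and their difference was -0.46 (SE 0.22, unadjusted p = 0.0543, adjusted p = 0.363). *Prkaca*, the catalytic subunit gene with the highest level among the other PKA genes (mean 113.7 TPM), was likewise lowest in female KO replicates 4 and 1, at 75.6 TPM in both, and its female KO effect was -0.28 (adjusted p = 0.468).

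*Pde3b* (ENSMUSG00000030671, chromosome 7) encodes the phosphodiesterase through which insulin restrains lipolysis. Female WT mice had 39.8, 40.9, 39.5 and 36.6 TPM, and female KO mice 20.1, 33.2, 29.4 and 32.1 TPM. All 4 female KO mice were below all 4 female WT mice, as for 3.19% of all genes. The log2 difference was -0.47 (SE 0.17, 95% interval -0.85 to -0.08), with an unadjusted p of 0.0218 and an adjusted p of 0.247 (limma), so it did not pass. Leaving out 1 mouse at a time gave -0.54 to -0.31, and leaving out female KO replicates 1 and 4 gave -0.32. Male WT mice had 34.5, 23.04, 37.7 and 45.1 TPM and male KO mice 27.9, 35.1, 31.3 and 35.3 TPM, with a difference of -0.08 (SE 0.19, adjusted p = 0.831). The difference between the sexes in the KO effect was -0.39 (SE 0.26, adjusted p = 0.516). Within library name prefix 10, which holds 1 female mouse of each genotype, the female KO effect was -0.96, and within prefix 8b, with 1 KO and 3 WT mice, it was -0.40.

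Coding transcript Pde3b-201 held 63.7% of the *Pde3b* level and Pde3b-203, a retained intron of 719 bases, 35.9%. The coding form alone did overlap between the female groups, with 26.6, 26.5, 24.6 and 18.4 TPM in WT and 13.6, 21.2, 17.6 and 22.3 TPM in KO mice. The retained intron did not, with 12.8 to 17.6 TPM in WT and 6.33 to 12.0 TPM in KO mice. Of all transcripts with a mean of at least 1 TPM, 3.16% were lower in every female KO than in every female WT mouse. In the same female KO mice the summed markers of endothelial and of smooth muscle cells were above those of WT mice, at values given with the other pathway genes, and their part in the result was not tested.

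*Pde4d* (ENSMUSG00000021699, chromosome 13) encodes a cAMP-specific phosphodiesterase that PKA itself activates. Of the 8 members in the limma fit it was the one past the threshold between the sexes. The 8 males ranged from 12.6 through a median of 17.1 to 19.7 TPM, and the 8 females from 18.8 through 22.8 to 34.9 TPM. In each group of 4 it had 12.6, 17.6, 16.7 and 19.7 TPM in male WT, 15.8, 16.2, 17.5 and 17.8 TPM in male KO, 34.9, 18.8, 21.6 and 27.1 TPM in female WT, and 23.995, 19.6, 21.2 and 28.1 TPM in female KO mice. Only the highest male and the 2 lowest females overlapped. Averaged over the genotypes, females exceeded males by 0.51 on the log2 scale (SE 0.13, 95% interval 0.25 to 0.78, adjusted p = 0.0339 by limma). It was the 1 member called of 8 tested, against 4.48% of all genes called, with 0.581% of all genes called higher in females. With *Adcy3*, 2 members had an unadjusted p under 0.05, against 21.3% of all genes.

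This call was not robust to every setting, although the direction was the same in each. It was lost without any TPM minimum (adjusted p = 0.0740) and with the library name prefix as a covariate (0.72, adjusted p = 0.0516). It was also lost without any of male WT replicate 3, male KO replicates 2, 3 and 4, female WT replicate 4 and female KO replicates 1 and 4, with adjusted p of 0.0605 to 0.0836 and log2 differences of 0.47 to 0.53. Without female KO replicates 1 and 4 together it was 0.43 (adjusted p = 0.171). Within prefixes the female excess was 0.85 for prefix 10 (2 females, 1 male), 0.38 for prefix 5 (1 female, 2 males) and 0.67 for prefix 9 (1 female, 5 males). Prefix 8b holds females only.

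Of the 2 leading *Pde4d* transcripts, 1 separated the sexes. Pde4d-207, coding, of 4207 bases and 55.5% of the level, had 7.26 to 9.82 TPM in the 8 males and 10.6 to 19.7 TPM in the 8 females, without overlap. Of all transcripts with a mean of at least 1 TPM, 0.0453% were higher in every female than in every male. Pde4d-213, coding, of 2123 bases and 29.6% of the level, had 3.19 to 9.21 TPM in males and 3.02 to 8.68 TPM in females. Within females, Pde4d-213 had 7.13, 6.84, 7.62 and 8.68 TPM in WT and 3.02, 5.58, 3.86 and 3.68 TPM in KO mice, so that the KO mice were all lower than the WT mice, as for 3.16% of transcripts, while Pde4d-207 overlapped. The transcript values are given as a description and were not tested. The start of Pde4d-209 is the only *Pde4d* start among the RefSeq windows, so no window of the leading transcripts is printed. KO and WT did not differ past the threshold in summed *Pde4d*, with 0.03 (SE 0.14, adjusted p = 0.906) in males and -0.11 (SE 0.21, adjusted p = 0.779) in females.

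Across the members, none of 8 tested was called for KO against WT in males by limma, where 0.00821% of 12176 genes were. None of them had an unadjusted p under 0.05, against 18.7% of all genes. *Gnas* was the 1 member whose male groups did not overlap, against 10.2% of all genes, and 9.55% in that direction. In females 0 of 8 members and 0% of 12141 genes were called, and 2 members (*Adra1a* and *Pde3b*, both lower) had an unadjusted p under 0.05, against 17.1% of all genes and 5.45% in that direction. *Pde3b* was the 1 member without overlap, against 8.08% of all genes, and 3.19% in that direction. For the difference between the KO effects of the sexes, 0 of 8 members and 0% of 12210 genes were called, with 1 member and 14.2% of genes at an unadjusted p under 0.05. For the KO effect averaged over the sexes, 0 of 8 members were called, against 2.93% of all genes, and 1 had an unadjusted p under 0.05, against 24%. In males 5 members were higher and 3 lower in KO mice, with a median log2 change of 0.06 against 0.16 over all genes, of which 79.9% were higher. In females 2 were higher and 6 lower, with a median of -0.27 against 0.10 over all genes, of which 62.7% were higher. The averaged comparison uses the same mice as those within each sex.

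**Figure D3:**
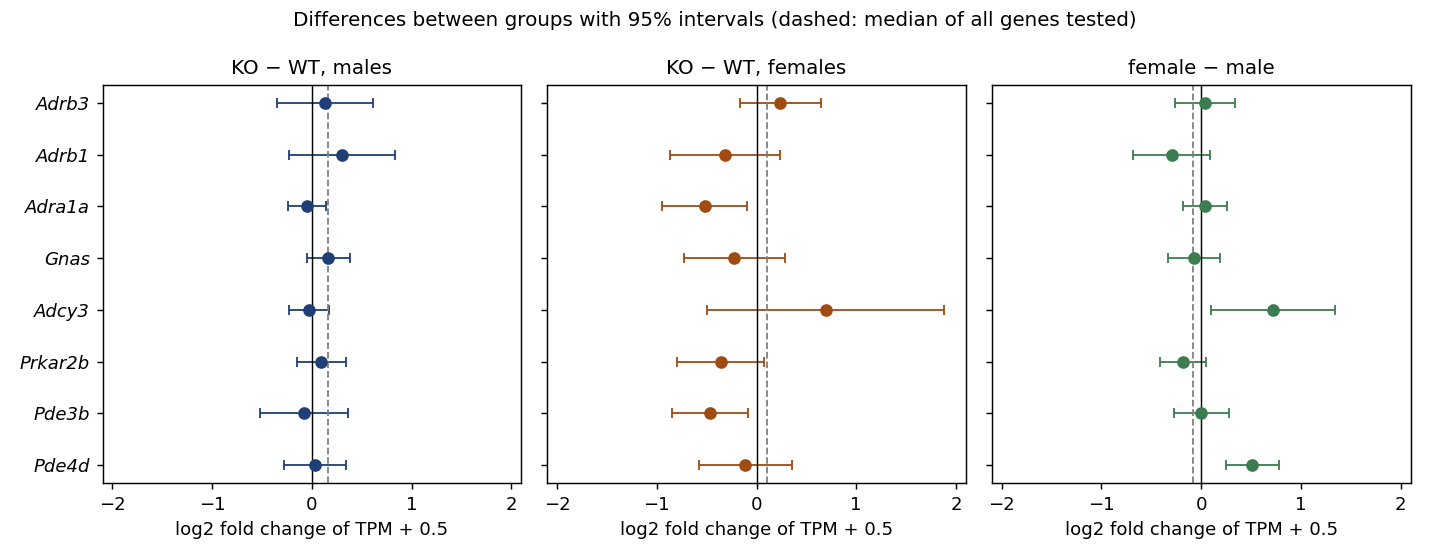
Log2 fold change of TPM + 0.5 (horizontal axis) of the 8 tested members for KO minus WT in males, KO minus WT in females, and female minus male. Points are estimates, bars 95% intervals, solid lines 0 and dashed lines the median of all genes tested; in the last panel the interval of *Pde4d* runs from 0.25 to 0.78.

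Female KO replicates 1 and 4 stood apart in several members at once. They took the lowest 2 of 16 places for *Adra1a* and *Gnas*, places 14 and 16 for *Adrb1*, and the highest 2 for *Adcy3*. *Prkaca*, which is not a member, was also lowest in both. Among the other tested members, replicates 1 and 4 took places 16 and 14 for *Prkar2b*, 16 and 11 for *Pde3b*, 2 and 6 for *Adrb3*, and 4 and 2 for *Pde4d*. They also ranked high in genes that cAMP induces in brown adipocytes, being among the top 2 libraries for 5 and 7 of the 9 such genes with a mean of at least 1 TPM. *Nr4a3*, 1 of these 9, reached that mean only through replicate 4. It had 9.71 TPM there, 2.21 TPM in replicate 1 and at most 1.18 TPM elsewhere, so its place among the 9 is a description only. The remaining gene of that list of 10, *Fgf21*, a secreted metabolic hormone, had a mean of 0.617 TPM and placed them at 10 and 16 of 16. *Dio2*, the deiodinase that makes active thyroid hormone, had 52.6 TPM in replicate 4 and at most 20.6 TPM in any other library. *Ppargc1a*, a coactivator of mitochondrial biogenesis, had 34.6 TPM in replicate 4 and at most 18.03 TPM elsewhere. *Elovl3*, a fatty acid elongase of activated brown fat, had 50.2 and 69.5 TPM in replicates 1 and 4 and at most 29.1 TPM elsewhere. *Ucp1* itself ranged only from 2353 to 4423 TPM and was highest in replicate 4. Their library name prefixes are 10 and 9, whereas replicates 2 and 3 have 5 and 8b.

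**Figure D4:**
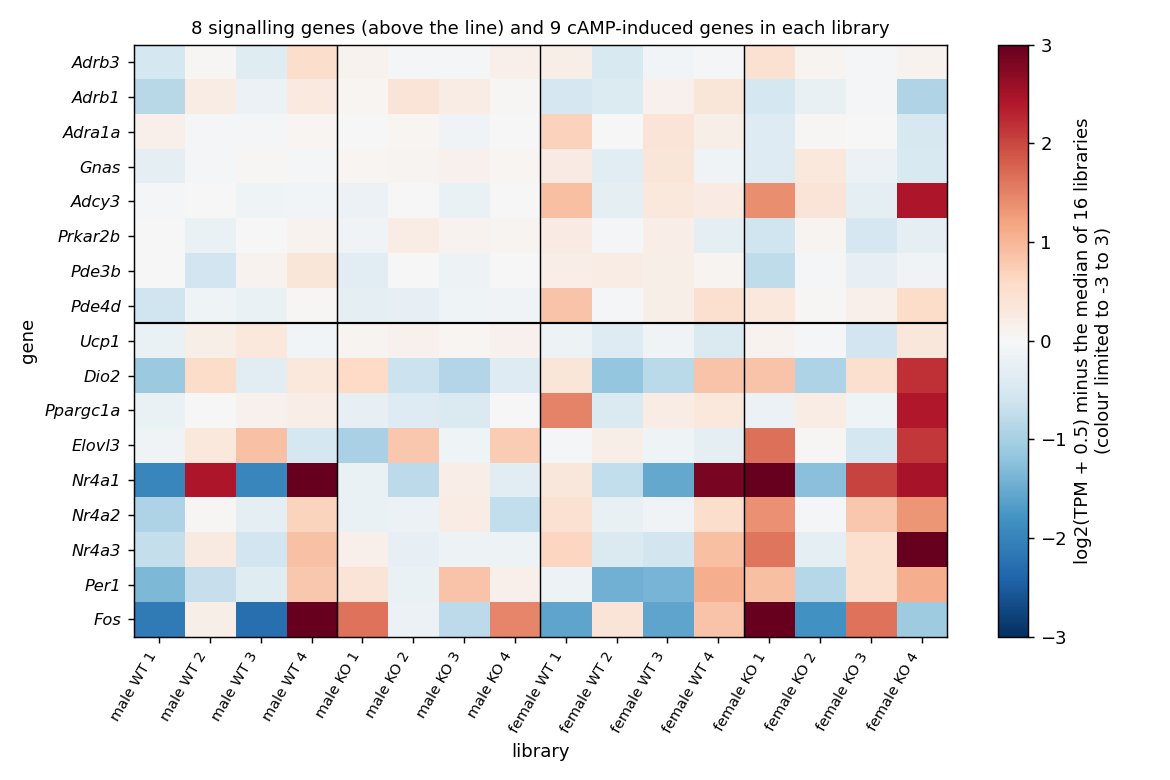
Colour shows log2(TPM + 0.5) minus the median over 16 libraries, limited to -3 and 3, for the 8 members (above the line) and 9 cAMP-induced genes in each library (columns). Female KO 1 and 4 show the highest *Adcy3* and *Elovl3*, and male WT 4 and female WT 4 also show high *Nr4a1*.

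All 9 induced genes tested in females were higher on average in KO than WT mice, with a median log2 difference of 0.89, but none was called by limma and none had an unadjusted p under 0.05. *Nr4a3* is among these 9 only through its level in female KO mice, so its direction is not separate evidence. In males 3 of 8 were higher, with a median of -0.06, and 0 were called, with 1 lower at an unadjusted p under 0.05. Over all genes, 62.7% in females and 79.9% in males were higher in KO mice, and 17.1% and 18.7% had an unadjusted p under 0.05. The immediate early genes of the list varied between mice of every group: *Nr4a1* ranged from 2.94 to 128 TPM within male WT mice and *Fos* from 0.0965 to 171 TPM.

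Of 119 other genes of the pathway found in the annotation, 88 were tested in males and 91 in the other comparisons. In males and in females 0 were called by limma, with 14 higher and 2 lower at an unadjusted p under 0.05 in males and 12 higher and 9 lower in females. The shares over all genes at that unadjusted p were 18.7% in males and 17.1% in females, with 5.45% lower in females. Called were 0.00821% and 0% of all genes. Averaged over the sexes, 5 rose and 1 fell in KO mice, a share to be read against 2.58% of all genes called higher and 0.352% called lower.

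Those that rose act at several steps. *Pkig*, an inhibitor of PKA, went from 4.06 to 7.51 TPM in the 8 WT mice (median 6.13) to 6.39 to 12.4 TPM in the 8 KO mice (median 10.8), a log2 change of 0.69 (SE 0.12, adjusted p = 0.0184). *Arrb2*, a β-arrestin that uncouples receptors from G proteins, had 4.07 to 7.40 TPM (median 6.08) in WT and 7.49 to 11.7 TPM (median 9.13) in KO mice. *Pde4b*, another cAMP phosphodiesterase, had 2.86 to 4.51 TPM (median 4.001) in WT and 4.65 to 7.72 TPM (median 5.58) in KO mice. For these last, *Arrb2* and *Pde4b*, the genotypes did not overlap, as for 0.344% of all genes, and the changes were 0.65 (adjusted p = 0.0182) and 0.63 (adjusted p = 0.0213). *Gnai2*, an inhibitory α-subunit, rose by 0.56 (adjusted p = 0.0313), from 32.4 to 60.7 TPM (median 41.5) to 48.7 to 78.9 TPM (median 65.5). *Crem*, a nuclear factor of the cAMP response, rose by 0.48 (adjusted p = 0.0489), with medians of 7.06 and 9.44 TPM. Its log2 change was 0.11 in males and 0.86 in females (limma, adjusted p = 0.647 and 0.231), so the average rests mainly on the females. The difference between these effects was 0.75 (limma, unadjusted p = 0.00834, adjusted p = 0.222). *Grk3*, a kinase that desensitizes receptors, was the gene that fell, by 0.55 on the log2 scale (adjusted p = 0.0162), from 20.03 to 34.4 TPM (median 25.4) to 14.7 to 22.2 TPM (median 17.4).

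Without male KO replicate 3, *Pkig* (adjusted p = 0.0522), *Grk3* (0.0514), *Pde4b* (0.0566), *Gnai2* (0.0719) and *Crem* (0.0857) all lost the call, as did *Pde4b* without male WT replicate 3 (0.0548). *Gnai2* lost it without 8 and *Crem* without 11 of the 16 libraries, at adjusted p up to 0.0734 and 0.109, and *Arrb2* kept it without each single library. All 6 kept their direction and lost the call with the library name prefix as a covariate (adjusted p 0.0598 to 0.237) and without female KO replicates 1 and 4 (adjusted p 0.133 to 0.258, with 0.148 for *Arrb2*). Without a TPM minimum *Crem*, *Gnai2* and *Pde4b* lost it (adjusted p 0.115, 0.0763 and 0.0602), and with a replicate block the same 3 did (0.0829, 0.0722 and 0.0534). *Crem* also lost it with median-of-ratios scaling (0.0531), nuclear scaling (0.0898), a minimum of 5 TPM (0.0516) and no trend (0.0544). Of the macrophage markers, 7 of 8 had a mean of at least 1 TPM. Their sum was 33.5 to 65.5 TPM in male WT and 83.3 to 123 TPM in male KO mice (exact permutation test, p = 0.0286). In females it was 40.8 to 89.4 TPM in WT and 53.8 to 81.6 TPM in KO mice (exact permutation test, p = 0.486). Endothelial markers (7 of 7) summed to 147 to 214 TPM in female WT and 246 to 470 TPM in female KO mice, and smooth muscle and pericyte markers (6 of 6) to 109 to 131 TPM and 136 to 251 TPM (exact permutation test, p = 0.0286 for each). Fibroblast markers (6 of 6) summed to 59.7 to 89.7 TPM in male WT and 106 to 116 TPM in male KO mice (exact permutation test, p = 0.0286). No marker of these lists was at 0 in all libraries. Their part in the results was not tested.

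**Figure D5:**
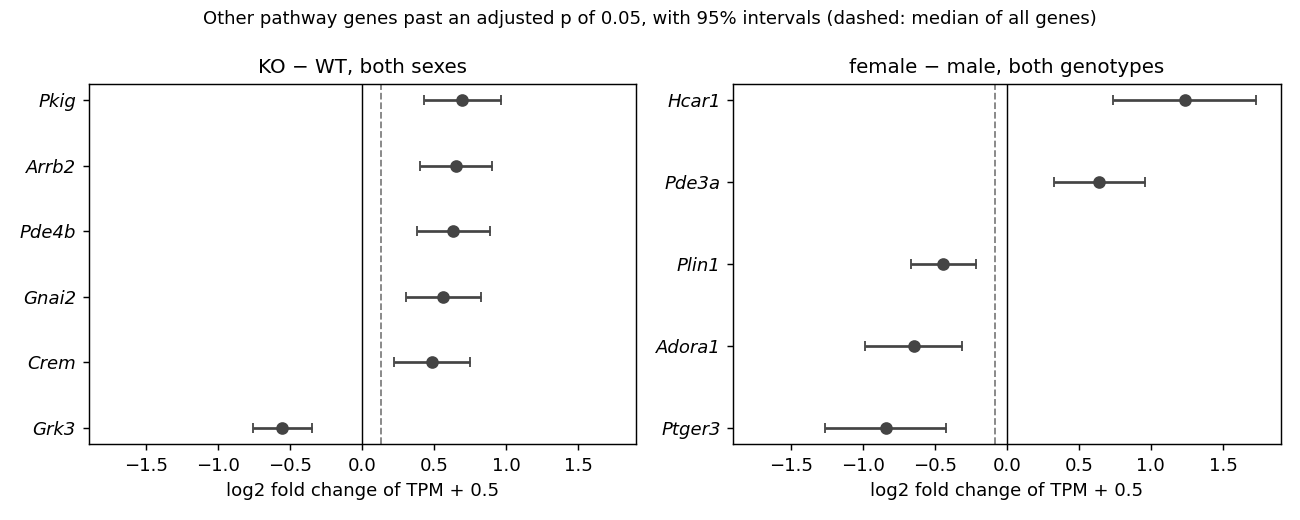
Log2 fold change of TPM + 0.5 (horizontal axis) with 95% intervals for the 11 other pathway genes past an adjusted p of 0.05, for KO minus WT averaged over the sexes (left) and female minus male averaged over the genotypes (right). Dashed lines are the median of all genes tested; *Pkig* has the highest value on the left at 0.69, and *Hcar1* on the right at 1.23.

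Between the sexes, 5 other pathway genes were called, 2 higher and 3 lower in females, against 0.581% and 3.9% of all genes. *Hcar1*, a lactate receptor that acts through an inhibitory G protein, had 1.02 to 4.61 TPM (median 2.05) in males and 4.20 to 8.82 TPM (median 6.04) in females, a log2 difference of 1.23 (SE 0.23, adjusted p = 0.0109). *Pde3a*, the close relative of *Pde3b*, had 0.515 to 1.04 TPM (median 0.651) in males and 0.923 to 1.89 TPM (median 1.38) in females (0.64, adjusted p = 0.0264). It did not reach a mean of 1 TPM over the males and passed that minimum only through its level in females. The call of *Pde3a* is therefore given as a description only. Lower in females were 2 receptors that restrain the cyclase, *Adora1* for adenosine (median 31.0 TPM in males and 21.3 TPM in females, -0.65, adjusted p = 0.0332) and *Ptger3* for prostaglandin E2 (median 26.3 and 14.4 TPM, -0.84, adjusted p = 0.0291), and the lipid droplet coat gene *Plin1* (median 749 and 586 TPM, -0.44, adjusted p = 0.0323). In males the KO effects on *Adora1*, *Ptger3* and *Plin1* were 0.22, 0.31 and 0.36, and in females -0.55, -0.75 and -0.34. The difference between these effects was -0.77 for *Adora1* and -1.06 for *Ptger3* (limma, unadjusted p = 0.0270 and 0.0171, adjusted p = 0.284 and 0.266). With such KO effects, the estimated sex differences of *Adora1*, *Ptger3* and *Plin1* were larger among KO than among WT mice. In WT mice *Plin1* had 588, 602, 646 and 792 TPM in males and 630, 558, 652 and 615 TPM in females. *Adora1*, *Ptger3* and *Plin1* lost the call without female KO replicates 1 and 4 (adjusted p = 0.154 for *Adora1* and *Plin1* and 0.131 for *Ptger3*), and each also did without 9 of the 16 libraries in turn. *Pde3a* lost it without male WT replicate 3 or 4 or male KO replicate 2 or 3 (adjusted p 0.0591 to 0.0639, of the 12 such fits in which it could be tested), and *Hcar1* without none. Of the Schwann cell and neuron markers, 3 of 7 had a mean of at least 1 TPM, and *Dbh* was at 0 in every library. Their sum was mostly *S100b*, so it describes mainly that gene and not the list as a whole. The sum was 144 to 202 TPM in males and 44.1 to 149 TPM in females (exact permutation test over the 16 mice, p = 0.000466). Its part in the results was not tested.

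Among the genes at the highest level within the other groups of the pathway were *Pnpla2*, the first lipase of triglyceride breakdown (1261 TPM), *Gnb2*, a G protein β-subunit (190 TPM), *Akap1*, which anchors PKA at mitochondria (109 TPM), *Rgs2*, which shortens G protein signals (56.8 TPM), *Sik2*, a kinase that holds back CREB coactivators (43.3 TPM), *Adcy6* (43.3 TPM), *Adora1* (26.0 TPM), *Pde2a* (22.1 TPM) and *Rapgef3*, the cAMP sensor Epac (16.8 TPM), each as a mean over 16 libraries. *Adcy6* was thus at a mean above that of *Adcy3* (34.4 TPM) and varied less, from 31.2 to 54.9 TPM.

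The genes whose log2(TPM + 0.5) followed *Adrb3* most closely over the 16 libraries were *Nbas* (Pearson r = 0.92), *Ier5* (0.90) and *Chpf* (0.90), and those that ran most against it were mt-Tg (-0.76), 9630013D21Rik (-0.70) and *Bbs10* (-0.69). For *Adrb1* they included *Map3k4* (0.88) and 6530402F18Rik (0.85), against *Etfbkmt* (-0.82) and *Net1* (-0.75). These are among the extremes of 12209 genes over points that share library composition, and are given without a test.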

How the data were processed

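Bulk RNA-seq of BAT gave 1 file per mouse. The authors pseudo-aligned reads with kallisto 0.46.2 against mouse transcripts (GRCm39 per the labels; the annotation release is not given in the sources used here) and deposited TPM per transcript, with replicates kept apart. TPM were summed per gene symbol with GENCODE M21, which matched 135051 of 137438 transcripts; the other 2387 were left out. They took at most 0.480% of a library, except 17.7% in female WT replicate 4, where 1 transcript held 16.5%.

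Genes with a mean of at least 1 TPM were tested on log2(TPM + 0.5), a scale that understates changes of low genes, with limma 3.58.1 (trend, R 4.3.3), called at a Benjamini-Hochberg adjusted p under 0.05 over all genes. Each sex was fitted alone; the difference between sexes and the averaged effects came from 1 fit of 16 mice. DESeq2 and edgeR need counts and were not used. Sums and *Gdf15* were tested by exact permutation. The fit was tested on simulated data. Named are all members, other pathway genes past the threshold and the highest of each list, of which a few are not reported here; members and lists were chosen with earlier results of these data known. Coordinates and promoter sequence are RefSeq, GRCm38.p6. The TPM keep no depth. Columns of unknown samples: 0.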

Additional observations from a re-analysis of the deposited data

Results flagged for a closer look

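Of the 32 groups of 4 mice formed by the 8 tested members, 0 held a mouse far enough from the others to pass Dixon's 95% criterion, of which chance passes about 1 in 20.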

How the results depend on the processing

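Depth is unknown for TPM, 4 mice per group limit precision, and the library name prefix is partly confounded with sex and genotype. With median-of-ratios scaling the median log2 change of all genes moved in males from 0.16 to 0.00, so member directions near 0 depend on the scaling. The cause of the changes below was not tested.

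Apart from leaving out single mice, 452 values for single genes kept direction and side of the threshold, 41 lost the call, 1 gained it and 27 turned. The turned log2 changes follow. In males, median-of-ratios scaling gave -0.040 for *Adrb3*, -0.0070 for *Gnas*, -0.14 for *Pde4d* and -0.076 for *Prkar2b*, scaling on nuclear transcripts -0.071 for *Pde4d* and -0.0098 for *Prkar2b*, and the library name prefix as covariate -0.057 for *Adrb3*, 0.035 for *Adcy3* and -0.078 for *Pde4d*. In females the prefix gave -0.022 for *Adcy3*. For the effect averaged over the sexes the prefix gave 0.11 for *Adrb1* and -0.090 for *Adcy3*. For the sex difference, median-of-ratios scaling gave 0.023 for *Gnas*, nuclear scaling -0.011 for *Adrb3* and *Adra1a* and -0.049 for *Pde3b*, and the prefix 0.036 for *Gnas* and 0.089 for *Prkar2b*. The total used for nuclear scaling still held the unmatched transcripts, 17.7% of female WT replicate 4. The factor of that library was 1.29 with nuclear and 0.858 with median-of-ratios scaling. This limits every nuclear-scaled value that uses that library, and its part in them was not tested. Leaving out female KO replicates 1 and 4, chosen after seeing the data, gave -0.23 for *Adcy3* and 0.022 for *Gnas* in females, -0.025 for *Adrb3* and -0.20 for *Adcy3* in the difference between the KO effects of the sexes, 0.14 for *Adrb1*, -0.13 for *Adcy3* and 0.094 for *Gnas* averaged over the sexes, and -0.025 for *Adrb3* and 0.052 for *Gnas* in the sex difference. Counting coding transcripts only moved the mean level of *Gnas* to 782 TPM and of *Pde3b* to 21.6 TPM.

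Leaving out 1 mouse at a time also turned uncalled values. The ranges in males were -0.017 to 0.34 for *Adrb3*, -0.066 to 0.0022 for *Adcy3*, -0.27 to 0.053 for *Pde3b* and -0.092 to 0.12 for *Pde4d*, and in females -0.24 to 0.048 for *Pde4d*. In the difference between the KO effects they were -0.095 to 0.26 for *Adrb3* and -0.28 to 0.017 for *Pde4d*. For the averaged effect they were -0.13 to 0.074 for *Adrb1*, -0.11 to 0.024 for *Gnas* and -0.11 to 0.040 for *Pde4d*, and for the sex difference -0.032 to 0.14 for *Adrb3*, -0.024 to 0.094 for *Adra1a* and -0.090 to 0.082 for *Pde3b*.

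The number of genes called in males was 1, and 2 with pseudocount 0.1, 0 without a TPM minimum, 3 with median-of-ratios scaling, 6 with the prefix, 38 with all 16 libraries in 1 fit, and 0 to 5 without 1 mouse. In females it was 0, and 8 with the prefix, 5 with all 16 libraries, 1 without female KO replicates 1 and 4, and 0 to 9 without 1 mouse. For the difference between the KO effects it was 0, 1 without the trend, and 0 to 3 without 1 mouse. For the averaged effect it was 358, and 54 without a TPM minimum, 177 with a minimum of 5 TPM, 12 with the prefix, 9 without female KO replicates 1 and 4, and 31 (without male KO replicate 3) to 1055 (without male WT replicate 2). For the sex difference it was 547, and 262 without a TPM minimum, 285 with nuclear scaling, 93 with the prefix, 114 without female KO replicates 1 and 4, and 194 (without male KO replicate 2) to 1020 (without female KO replicate 2).

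Same-numbered WT and KO mice deviated together with r of -0.09 to 0.35 in males and -0.11 to 0.15 in females. Some mice correlated best with their own number and others did not. These few correlations cannot settle whether replicate numbers pair the mice, and the main fits did not treat them as pairs. With a replicate block 0 genes were called in males, 1 in females and 60 in the averaged effect.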
